A study of Mus musculus with 24 samples.

Results

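Liver RNA from wild-type (WT) mice on a ketogenic diet (KD) was compared with liver RNA from WT mice on a control diet. The comparison used 8 of the 24 liver libraries of the series, 4 KD livers and 4 control livers, chosen by the labels for genotype and diet. All 8 mice were females of the strain B6129SF2/J with no transgene named. They began the diets at 3 months of age and stayed on them for 6 months. Carbohydrate made up 70% of the control diet, protein 10% and long-chain triglycerides 20%, at 4.1 kcal/g. The KD held no carbohydrate, 10% protein and 90% long-chain triglycerides, at 6.7 kcal/g, so that carbohydrate, fat and energy density changed together and cannot be told apart. The other 16 libraries came from WT mice on a control-type diet with medium-chain triglycerides (MCT, with 10% long-chain and 10% medium-chain triglycerides, 70% carbohydrate and 10% protein, at 4.1 kcal/g) and from 3xTg-AD (3xTg) females of the same age on all 3 diets. The 3xTg mouse is an Alzheimer's disease model that carries mutant human APP and tau transgenes driven in neurons. Each library was made from polyA RNA of 1 mouse. Whether the mice had fed, and at what hour livers were taken, is not given in the sources used here.

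When dietary carbohydrate is scarce, the liver oxidises fatty acids in mitochondria and peroxisomes and exports ketone bodies as fuel for other organs. The nuclear receptor PPARA, activated by fatty acids, induces many genes of that programme, while SREBP-1c and ChREBP, activated by insulin and by sugar, drive the genes that make fatty acids from carbohydrate. Dietary fat that enters the hepatocyte is esterified to triglyceride, stored in lipid droplets or exported in lipoproteins.

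Counts assigned to genes ranged from about 12474900 to 14348600 in the 8 livers. All 13 listed hepatocyte markers were detected in each liver, and together they took 130316 to 173821 CPM (counts scaled to a common library size). Control livers 3 and 4 and KD liver 4 stood apart from the other 5. Mitochondrially encoded genes took 7.84% to 8.80% of their counts, against 12.8% to 16.0% in the other 5, and their TMM scaling factors were 1.08 to 1.12, against 0.860 to 0.950. KD livers 1 and 4 also held muscle transcripts, 108 and 204 CPM summed over 11 genes of skeletal and smooth muscle, against 2.58 to 28.2 CPM in the control livers, 8.82 in KD liver 2 and 5.20 in KD liver 3. None of 24 library measures passed Benjamini-Hochberg adjustment between the diets (exact permutation test, two-sided, smallest adjusted p = 0.457). The smallest raw p that 4 against 4 livers allow is 0.0286. With 24 measures, a few fully separated ones could thus not have passed, and the outcome does not show that the diets were alike.

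Transcripts of the exocrine pancreas, the enzyme-secreting gland that lies beside the liver, were abundant in 3 of the 4 KD livers. Summed over 33 listed genes, they reached 1132, 17856, 9.20 and 5347 CPM in KD livers 1 to 4. The 4 control livers held 29.5, 6.19, 19.5 and 19.7 CPM. KD liver 3 was thus within the control range, and 3 MCT livers of the series also held more than 100 CPM. Pnlip, the gene of pancreatic triglyceride lipase, stood at 238, 3733, 0.632 and 929 CPM of raw library totals in KD livers 1 to 4. Of the 33 genes, 26 passed the expression filter, all with higher fitted means on KD, and 2 of them, Pnliprp2 and Cuzd1, passed the test after adjustment. Most of the 33 were low outside the 6 libraries over 100 CPM, 3 of which were WT KD livers. Passing the filter thus rested mostly on those libraries, and it largely set the shared direction beforehand. Endocrine islet markers summed to at most 3.45 CPM in the KD livers and none of the 11 passed the filter. In bulk tissue, fewer cells of a type and less RNA per cell cannot be told apart.

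**Figure D1:**
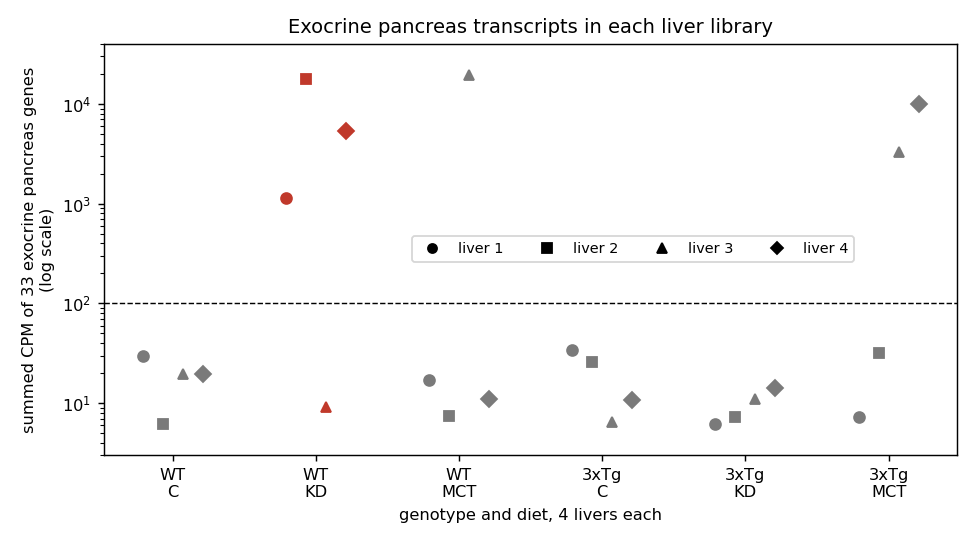
Summed CPM of 33 exocrine pancreas genes in each of the 24 liver libraries (log axis), with a dashed line at 100 CPM. WT KD livers 1, 2 and 4 lie above the line at 1132, 17856 and 5347 CPM, and WT KD liver 3 lies at 9.20 CPM among the controls.

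Of 13281 genes that passed the filter, 86 differed between KD and control diet in WT liver at adjusted p under 0.05 (edgeR's quasi-likelihood test, Benjamini-Hochberg adjustment), 0.648% of those tested. On KD, 48 genes were higher (0.361%) and 38 lower (0.286%), called raised and lowered below whatever their source. At an unadjusted p under 0.05, 830 genes were higher (6.25%) and 800 lower (6.02%). The median log2 difference of all tested genes was -0.00. The 4 KD livers and the 4 control livers did not overlap for 43 of the 48 raised and 36 of the 38 lowered genes. Over all tested genes the groups did not overlap for 962 (7.24%), with KD above control for 471 (3.55%) and below it for 491 (3.7%). KD liver 3, which had the least pancreas RNA, lay outside all 4 controls in the direction of the call for 46 of the raised and 37 of the lowered genes, against 22.1% of all tested genes above and 23.3% below the controls in that liver. Both shares among called genes describe the same values that made the calls. Leaving out control liver 4 or KD liver 2 left 13 and 15 called genes, and the range over single livers left out was 13 to 52. Leaving out the 3 livers with a low mitochondrial share left 2 called genes, and the part of that share or of muscle RNA in the calls was not tested. Without those 3 livers the log2 differences of Clstn3, Chrna4 and Arl4d were 1.16, -2.47 and -0.998, against 2.07, -5.29 and -1.70 with all livers.

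**Figure D2:**
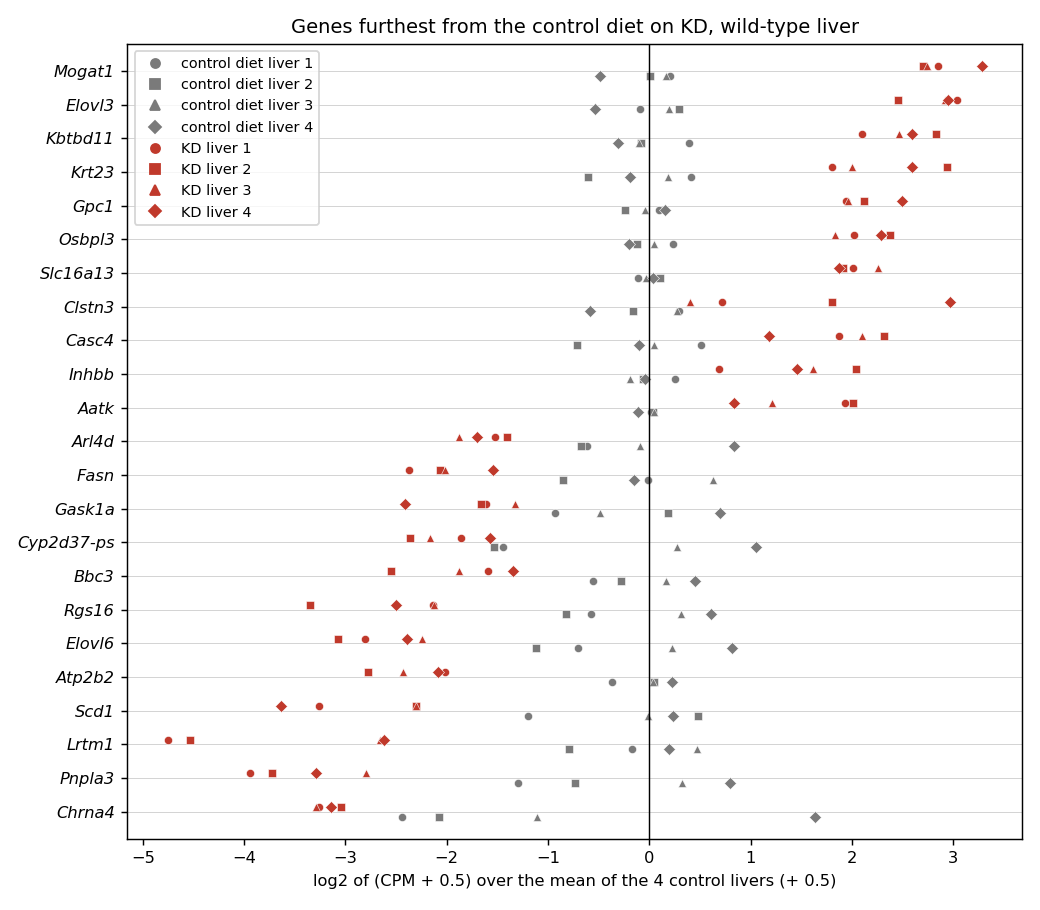
Level in each of the 8 WT livers, as log2 of (CPM + 0.5) over (mean control CPM + 0.5), for 23 genes with the highest or lowest fold changes among called genes chosen by the naming rule. Grey points are control livers, red points KD livers, and the marker shape gives the liver's number. The KD livers lie on 1 side of the control livers for each of the 23 genes, which the rule required.

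Fatty acid synthesis genes made up the clearest lowered group. Of 23 genes on the list for fatty acid synthesis and desaturation, 5 fell on KD (Fasn, Scd1, Elovl6, Acaca and Pnpla3). None on the list rose, and 18 did not pass the test. Over all tested genes 0.286% were called lower. Pnpla3 encodes a lipid droplet protein and is also counted in the droplet list below. The elongase Elovl3 is not on the synthesis list, and it rose (log2 difference 3.14 ± 0.60). The list's median log2 difference was -0.52, and 10 of the 23 genes were lower in every KD liver than in every control liver, against 3.7% of all tested genes. Each KD liver on its own had a list median below the control mean, at -0.96, -0.63, -0.50 and -0.43.

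Fasn encodes fatty acid synthase, which builds palmitate from malonyl-CoA (ENSMUSG00000025153.9, chromosome 11, 120805846 to 120824547 on GRCm38). Its level was 821, 461, 1287 and 749 CPM in control livers 1 to 4 and 159, 197, 204 and 283 CPM in KD livers 1 to 4. Every KD liver was below every control liver. The log2 difference was -1.97 ± 0.39 (SE, n = 4 per group, adjusted p = 0.0190), and the call was lost when any of control livers 3 and 4 or KD livers 1, 2 and 3 was left out. Scd1, the main hepatic stearoyl-CoA desaturase (ENSMUSG00000037071.3, chromosome 19, 44394455 to 44407879 on GRCm38), stood at 2107, 6771, 4798 and 5707 CPM in control livers 1 to 4 and 505, 984, 983 and 389.7 CPM in KD livers 1 to 4. It fell, with a log2 difference of -2.76 ± 0.54 (adjusted p = 0.0190), with no overlap and with wide spread among the controls, and was no longer called without control liver 4 or KD liver 1, 2 or 4. Elovl6, which extends palmitate to stearate, was at 159.7, 119.7, 303 and 457 CPM in control livers 1 to 4 and 36.6, 30.3, 54.4 and 49.00 CPM in KD livers 1 to 4, and Acaca, the acetyl-CoA carboxylase that makes malonyl-CoA, at 81.6, 88.0, 84.6 and 77.3 CPM in control livers 1 to 4 and 37.6, 42.6, 41.8 and 28.9 CPM in KD livers 1 to 4. Elovl6 fell, with a log2 difference of -2.61 ± 0.56 (adjusted p = 0.0373) and Acaca also fell, at a log2 difference of -1.13 ± 0.25 (adjusted p = 0.0417), again with every KD liver below the controls. The Acaca call was lost whichever of the 8 livers was left out, and the Elovl6 call without control liver 3 or 4 or any KD liver.

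Pnpla3, a lipid droplet protein with lipase and acyltransferase activity and a target of SREBP-1c, showed the largest lowered ratio of the list (ENSMUSG00000041653.5, chromosome 15, 84167837 to 84187236 on GRCm38). It was measured at 3.20, 4.98, 10.9 and 15.3 CPM in control livers 1 to 4 and 0.0913, 0.187, 0.806 and 0.431 CPM in KD livers 1 to 4. The log2 difference was -4.44 ± 0.77 (adjusted p = 0.0119), and it passed the test with any single liver left out. Several neighbours in the pathway did not pass. Acly, the ATP citrate lyase that supplies acetyl-CoA, was 341, 487, 384 and 628 CPM in control livers 1 to 4 and 124, 170.0, 204 and 176 CPM in KD livers 1 to 4, with no overlap between groups and a log2 difference of -1.45 ± 0.35 (adjusted p = 0.0529). For Thrsp, a lipogenic cofactor, the log2 difference was -1.48 ± 0.50 (adjusted p = 0.176). Srebf1, which encodes SREBP-1c, gave -0.98 ± 0.34 (adjusted p = 0.206), and Mlxipl, which encodes ChREBP, -0.92 ± 0.31 (adjusted p = 0.174). Acacb, the mitochondrial acetyl-CoA carboxylase whose product inhibits CPT1, had a log2 difference of -0.11 ± 0.29 (adjusted p = 0.918).

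The promoters of Fasn and Elovl6, called lower, and of Mogat1, called higher, are shown as examples from the lipid lists. They are the 250 bases before the RefSeq transcription start (GRCm38.p6), 5′ to 3′ on the gene's strand, with matches to the CCAAT box (CCAAT or its reverse complement ATTGG) in capitals.
Fasn (chr11:120824548-120824797, minus strand): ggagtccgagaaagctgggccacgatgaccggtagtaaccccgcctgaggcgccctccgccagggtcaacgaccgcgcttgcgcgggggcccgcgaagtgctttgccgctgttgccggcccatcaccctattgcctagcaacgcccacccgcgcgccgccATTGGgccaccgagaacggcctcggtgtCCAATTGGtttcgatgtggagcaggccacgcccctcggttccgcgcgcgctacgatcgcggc
Elovl6 (chr3:129532136-129532385, plus strand): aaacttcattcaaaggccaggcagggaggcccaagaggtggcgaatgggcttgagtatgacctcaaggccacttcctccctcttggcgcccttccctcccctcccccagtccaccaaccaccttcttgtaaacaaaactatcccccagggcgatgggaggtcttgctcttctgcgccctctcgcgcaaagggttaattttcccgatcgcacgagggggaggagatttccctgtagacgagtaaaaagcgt
Mogat1 (chr1:78510810-78511059, plus strand): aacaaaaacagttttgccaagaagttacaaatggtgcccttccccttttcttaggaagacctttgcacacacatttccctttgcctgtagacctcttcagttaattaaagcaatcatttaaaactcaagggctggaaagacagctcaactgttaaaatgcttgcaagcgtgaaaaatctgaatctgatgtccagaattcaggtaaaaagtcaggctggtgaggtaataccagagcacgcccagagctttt
The Fasn window held 3 matches, at -90 to -86, -62 to -58 and -59 to -55 from the start, of which the last pair overlap. The Elovl6 and Mogat1 windows held no match to any of 4 motifs searched on both strands, and the RefSeq start of Mogat1 lies 69 bases into the deposited gene. The Acaca window, 65766 bases from the deposited gene start, held no match either and is not shown. Windows were found for 10209 of the 13281 tested genes, 33 of the 48 raised and 29 of the 38 lowered. The CCAAT box was in 33.3% of raised, 31% of lowered and 36.8% of all windows, and the E-box CACGTG in 6.06%, 3.45% and 8.41%. The core of a sterol element, TCACNCCAC, was in 3.03% of raised windows (that of Ucp2 alone), 0% of lowered and 1.02% of all. A direct repeat of AGGTCA with 1 base between the copies, the arrangement that PPARA binds, was in 0.0588% of all windows and in none of the called genes' windows. None of the 4 shares was set against a test.

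Triglyceride assembly genes were called in both directions. Among 11 tested genes of triglyceride assembly, Mogat1 rose and Gpam fell, and 9 did not pass the test (median log2 difference -0.00). Mogat1 encodes a monoacylglycerol acyltransferase, which makes diacylglycerol from monoacylglycerol (ENSMUSG00000012187.13, chromosome 1, 78510991 to 78538173 on GRCm38). Its level was 1.72, 1.44, 1.65 and 0.874 CPM in control livers 1 to 4 and 13.3, 12.04, 12.3 and 18.2 CPM in KD livers 1 to 4. Every KD liver was far above every control liver. The log2 difference of 3.30 ± 0.33 had the smallest adjusted p of all genes (1.23e-05), and passed the test whichever liver was left out. Gpam, the mitochondrial acyltransferase that takes the first step of glycerolipid synthesis, was at 376, 358, 529.8 and 561 CPM in control livers 1 to 4 and 137, 181, 164 and 177 CPM in KD livers 1 to 4, without overlap. It fell, with a log2 difference of -1.47 ± 0.35 (adjusted p = 0.0485), a call lost with any of the 8 livers left out. Gpat3, an acyltransferase of the endoplasmic reticulum, had a log2 difference of 0.79 ± 0.30 (adjusted p = 0.264).

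In the list of lipid droplet coat and lipolysis genes, Fitm2 rose and Pnpla3 fell among 19 tested genes, and 6 genes lay above all controls in every KD liver, against 3.55% of all tested genes. The list's median log2 difference was 0.58. Fitm2 encodes a protein of the endoplasmic reticulum needed for droplets to form (ENSMUSG00000048486.6, chromosome 2, 163466379 to 163472629 on GRCm38). It was measured at 56.6, 50.3, 59.7 and 39.7 CPM in control livers 1 to 4 and 115, 100.5, 99.8 and 99.2 CPM in KD livers 1 to 4, a log2 difference of 1.01 ± 0.19 (adjusted p = 0.0190) without overlap, and the call was lost without control liver 4 or KD liver 2. Plin2, the main droplet coat protein of hepatocytes, was at 191, 205, 205 and 286 CPM in control livers 1 to 4 and 539.7, 512, 415 and 460.1 CPM in KD livers 1 to 4. All KD livers were above all controls, and the log2 difference of 1.12 ± 0.29 did not pass (adjusted p = 0.0723). Cidec, a droplet fusion protein also called FSP27, was at 0.859, 0.338, 1.10 and 0.437 CPM in control livers 1 to 4 and 6.48, 4.85, 4.03 and 7.47 CPM in KD livers 1 to 4 (log2 difference 3.04 ± 0.87, adjusted p = 0.113). G0s2, an inhibitor of the lipase ATGL, was at 19.3, 29.0, 57.7 and 66.8 CPM in control livers 1 to 4 and 123, 191, 136 and 164 CPM in KD livers 1 to 4 (log2 difference 1.83 ± 0.51, adjusted p = 0.0963). With the 3 KD livers over 100 CPM of pancreas RNA left out, together with the MCT livers above that limit, the list median was 0.22.

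Adipocyte transcripts were higher in some of the same KD livers. Adipoq, the adipocyte hormone gene, was at 0.156, 0, 0.138 and 0 CPM in control livers 1 to 4 and 1.37, 0.933, 0.0806 and 2.87 CPM in KD livers 1 to 4, and Plin1, the adipocyte droplet coat gene, was at 0 in all 4 controls and at 0.639, 0.0933, 0 and 0.719 CPM in KD livers 1 to 4. All 5 adipocyte markers that passed the filter had fitted differences above 0, none passed the test, and 4 further markers were too low to test. Adipoq and Plin1 were at or near 0 in the controls and passed the filter only through other libraries. Their differences could thus hardly lie below 0. The summed adipocyte list, at 3042 to 4062 CPM in controls and 2031 to 3816 CPM on KD, was mostly Car3, which liver also expresses. The droplet list and the adipocyte list had the same highest log2 difference, 5.41, from a gene on both lists. The part of adipocyte transcripts in the droplet genes was not tested. The droplet list's medians were 0.47, 0.34, 0.21 and 0.55 in KD livers 1 to 4, lowest in KD liver 3. Fitm2, Plin2, Cidec and G0s2 were each above the 4 controls in every KD liver, and so also in KD liver 3. Adipoq in that liver was at 0.0806 CPM and Plin1 at 0, and 1 such liver cannot decide the source of the droplet transcripts.

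Genes of fatty acid oxidation leaned upwards, with 1 call. Of 23 tested PPARA targets of peroxisomal and microsomal oxidation, Pex11a rose, none fell, and 22 did not pass. The median log2 difference was 0.48, 21 of the 23 were above 0, and 9 were higher in every KD liver than in every control, against 3.55% of all tested genes. Pex11a, which promotes the division of peroxisomes (ENSMUSG00000030545.9, chromosome 7, 79735957 to 79743131 on GRCm38), was at 124, 107, 153 and 117 CPM in control livers 1 to 4 and 306, 320.0, 288 and 197 CPM in KD livers 1 to 4. Without overlap it rose by a log2 difference of 1.15 ± 0.23 (adjusted p = 0.0245), and it no longer passed without control liver 1, 2 or 4 or KD liver 1, 2 or 3.

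The other PPARA targets gave smaller or more variable differences. Vnn1, a pantetheinase, was at 215, 144, 248 and 76.4 CPM in control livers 1 to 4 and 438, 440.1, 378 and 373 CPM in KD livers 1 to 4 (log2 difference 1.25 ± 0.31, adjusted p = 0.0632), and Ehhadh, the peroxisomal bifunctional enzyme, at 849, 763, 1004 and 608 CPM in control livers 1 to 4 and 1399, 1323, 1038 and 1217 CPM in KD livers 1 to 4 (log2 difference 0.63 ± 0.20, adjusted p = 0.147). Neither overlapped between groups. Cyp4a10 and Cyp4a14, omega-hydroxylases of fatty acids and close paralogs whose reads can be shared, had log2 differences of 0.80 ± 0.36 and 0.81 ± 0.36 (adjusted p = 0.370 and 0.363).

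No gene of the mitochondrial carnitine shuttle and beta-oxidation list passed the test among 20, while 18 had differences above 0 (median 0.28) and 9 were above all controls in every KD liver, against 3.55% of all tested genes. The list's medians in KD livers 1 to 4 lay at 0.36, 0.32, 0.26 and 0.24 above the control mean. Slc22a5, the carnitine importer, was at 25.1, 17.0, 26.9 and 17.4 CPM in control livers 1 to 4 and 46.0, 42.1, 42.2 and 50.6 CPM in KD livers 1 to 4 (log2 difference 1.06 ± 0.29, adjusted p = 0.0955). Slc25a20, which carries acylcarnitines into mitochondria, had a log2 difference of 0.59 ± 0.16 (adjusted p = 0.0955), and Hadha, a subunit of the mitochondrial trifunctional protein, one of 0.50 ± 0.16 (adjusted p = 0.162), both without overlap. Cpt1a, the rate-setting entry step, was at 532, 312, 429 and 333 CPM in control livers 1 to 4 and 529, 663, 679 and 829 CPM in KD livers 1 to 4. Its groups overlapped, and the log2 difference was 0.75 ± 0.23 (adjusted p = 0.132).

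Genes of ketone body synthesis, use and export showed no call. All 9 had differences above 0, with a median of 0.22, a lowest value of 0.06 and a highest of 0.96. Bdh1, which interconverts acetoacetate and beta-hydroxybutyrate, was at 391.6, 229, 425 and 319 CPM in control livers 1 to 4 and 313, 412, 389 and 509 CPM in KD livers 1 to 4, and Acat1, the thiolase of the first step, at 449, 629, 534 and 676 CPM in control livers 1 to 4 and 860.4, 767, 744 and 496 CPM in KD livers 1 to 4. The groups overlapped for both, and the log2 differences were 0.25 ± 0.20 (adjusted p = 0.673) and 0.33 ± 0.19 (adjusted p = 0.4999). Slc16a6, a monocarboxylate transporter, was the only one of the 9 without overlap, at 5.23, 5.23, 4.82 and 3.62 CPM in control livers 1 to 4 and 10.4, 9.80, 10.2 and 6.47 CPM in KD livers 1 to 4 (log2 difference 0.96 ± 0.37, adjusted p = 0.268). Fgf21, a fasting hormone made by the liver, was at 3.75, 3.71, 3.79 and 6.49 CPM in control livers 1 to 4 and 8.86, 6.53, 4.60 and 3.88 CPM in KD livers 1 to 4, with a log2 difference of 0.42 ± 0.34 (adjusted p = 0.669).

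**Figure D3:**
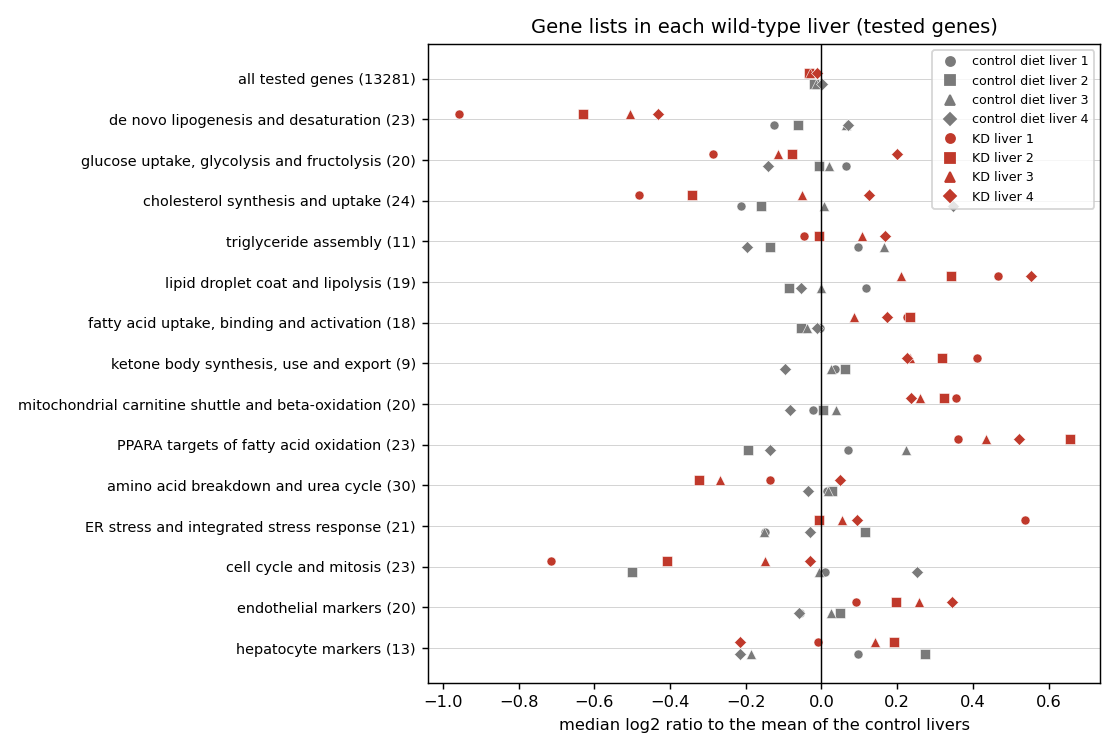
Median log2 ratio to the control mean for 15 gene lists in each of the 8 WT livers (grey, control; red, KD; marker shape, liver number). The 4 KD livers lie at -0.96 to -0.43 for lipogenesis and at 0.36 to 0.66 for PPARA targets.

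Sugar-handling genes gave 1 call. Of 20 tested genes of glucose uptake, glycolysis and fructolysis, Pklr fell and 19 did not pass (median log2 difference -0.11). Pklr, the liver pyruvate kinase, which ends glycolysis and is a ChREBP target (ENSMUSG00000041237.12, chromosome 3, 89136142 to 89146784 on GRCm38), was at 258, 282, 254 and 287 CPM in control livers 1 to 4 and 69.8, 148, 149 and 109 CPM in KD livers 1 to 4. All KD livers were below all controls, and the log2 difference of -1.18 ± 0.27 (adjusted p = 0.0472) was no longer called with any of the 8 livers left out. Khk, the ketohexokinase that starts fructose breakdown, was at 287, 295, 312 and 358 CPM in control livers 1 to 4 and 154, 213, 183 and 186 CPM in KD livers 1 to 4 (log2 difference -0.77 ± 0.21, adjusted p = 0.0955). Neither gene overlapped between groups.

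No gene of gluconeogenesis and pyruvate dehydrogenase control passed among 15 (median log2 difference -0.13). G6pc, the glucose-6-phosphatase that releases glucose, was at 291, 285, 384 and 335 CPM in control livers 1 to 4 and 282, 172, 214 and 117 CPM in KD livers 1 to 4, lower in every KD liver (log2 difference -0.72 ± 0.35, adjusted p = 0.405). Pck1, which makes phosphoenolpyruvate, had a log2 difference of 0.45 ± 0.39 (adjusted p = 0.685), and Pdk4, the kinase that shuts pyruvate dehydrogenase, one of -0.34 ± 0.53 (adjusted p = 0.858), both with overlap.

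Among secreted factors and regulators, the activin subunits Inhbe and Inhbb rose. Inhbe, which encodes the subunit of the hepatokine activin E (ENSMUSG00000047492.5, chromosome 10, 127348857 to 127354411 on GRCm38), was at 14.4, 16.1, 17.0 and 11.8 CPM in control livers 1 to 4 and 40.1, 49.1, 44.0 and 47.1 CPM in KD livers 1 to 4. It was higher in every KD liver, by a log2 difference of 1.60 ± 0.29 (adjusted p = 0.0129), and was not called without control liver 4. Inhbb, the subunit of activin B, was at 1.48, 1.10, 0.964 and 1.12 CPM in control livers 1 to 4 and 2.19, 6.34, 4.60 and 4.10 CPM in KD livers 1 to 4 (log2 difference 1.88 ± 0.37, adjusted p = 0.0212), and was not called without control liver 2, 3 or 4 or KD liver 2 or 3. Of 22 hepatokine, insulin and IGF signalling genes, only Inhbe was called (Inhbb was not listed there). Igfbp1, an IGF-binding protein whose transcription insulin represses, was at 67.9, 116, 118 and 212 CPM in control livers 1 to 4 and 22.9, 10.8, 28.1 and 18.2 CPM in KD livers 1 to 4. The KD livers were all below the controls, which themselves spread widely (log2 difference -2.68 ± 0.75, adjusted p = 0.0963).

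None of 23 lipid-sensing transcription factors and coactivators passed (median log2 difference 0.09). Ppara itself was at 146, 162, 142 and 154 CPM in control livers 1 to 4 and 211, 215, 185 and 212 CPM in KD livers 1 to 4, without overlap (log2 difference 0.45 ± 0.12, adjusted p = 0.0922). Insig1, a sterol-regulated anchor of SREBP processing, was at 343, 365, 493 and 704 CPM in control livers 1 to 4 and 184, 146, 188 and 285 CPM in KD livers 1 to 4 (log2 difference -1.25 ± 0.38, adjusted p = 0.138), lower in every KD liver. Insig2 was at 58.6, 98.5, 71.2 and 120.2 CPM in control livers 1 to 4 and 438, 82.7, 104 and 71.4 CPM in KD livers 1 to 4, and its log2 difference of 0.998 ± 0.45 (adjusted p = 0.376) rested on KD liver 1, since without it the value was -0.0195. Pparg, the adipogenic receptor, had a log2 difference of 0.10 ± 0.24 (adjusted p = 0.909).

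Genes outside the metabolic lists had some of the most stable calls. Kbtbd11, a kelch-repeat protein (ENSMUSG00000055675.6, chromosome 8, 15011025 to 15033333 on GRCm38), was at 4.76, 3.29, 3.24 and 2.75 CPM in control livers 1 to 4 and 16.7, 28.1, 21.7 and 23.7 CPM in KD livers 1 to 4. It rose by a log2 difference of 2.68 ± 0.40 (adjusted p = 0.00224). Slc16a13, a monocarboxylate transporter (ENSMUSG00000044367.7, chromosome 11, 70216789 to 70221064 on GRCm38), was at 1.02, 1.27, 1.10 and 1.19 CPM in control livers 1 to 4 and 6.12, 5.69, 7.34 and 5.53 CPM in KD livers 1 to 4, up by a log2 difference of 2.42 ± 0.34 (adjusted p = 0.00219). Gpc1, the cell-surface heparan sulfate proteoglycan glypican 1, was at 1.41, 1.01, 1.24 and 1.497 CPM in control livers 1 to 4 and 6.39, 7.28, 6.45 and 9.56 CPM in KD livers 1 to 4, up by a log2 difference of 2.51 ± 0.42 (adjusted p = 0.0102). Casc4 was at 9.76, 3.88, 6.96 and 6.24 CPM in control livers 1 to 4 and 25.9, 35.4, 30.4 and 15.8 CPM in KD livers 1 to 4 (log2 difference 2.00 ± 0.34, adjusted p = 0.0102). In these 4 genes no KD liver overlapped a control, and each call held with any single liver left out.

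The remaining highest ratios included Elovl3, Krt23, Osbpl3, Clstn3 and Aatk. Elovl3, an elongase of saturated and monounsaturated fatty acids, was at 1.87, 2.62, 2.41 and 1.25 CPM in control livers 1 to 4 and 20.4, 13.4, 18.7 and 19.0 CPM in KD livers 1 to 4 (log2 difference 3.14 ± 0.60, adjusted p = 0.0190). Krt23, a keratin, was at 6.33, 2.87, 5.30 and 3.99 CPM in control livers 1 to 4 and 17.4, 38.7, 20.1 and 30.5 CPM in KD livers 1 to 4 (log2 difference 2.53 ± 0.48, adjusted p = 0.0190). It was on the list of bile duct cell markers, of which it was the only one called among 8 tested. Osbpl3, of the oxysterol-binding family, was at 1.87, 1.35, 1.58 and 1.25 CPM in control livers 1 to 4 and 7.67, 9.98, 6.69 and 9.34 CPM in KD livers 1 to 4 (log2 difference 2.47 ± 0.43, adjusted p = 0.0119). Clstn3 had a log2 difference of 2.07 ± 0.46 and Aatk, a kinase, one of 1.88 ± 0.42 (adjusted p = 0.0421 and 0.0421). Elovl3 and Osbpl3 were no longer called without control liver 4, and Krt23 without control liver 2 or 4 or KD liver 2. Clstn3 was lost without any control liver or KD liver 2 or 4, and Aatk without any liver other than KD liver 4.

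Atp2b2, a calcium pump of the plasma membrane (ENSMUSG00000030302.16, chromosome 6, 113743831 to 114042613 on GRCm38), was the lowered gene with the smallest adjusted p. It was at 5.62, 7.68, 7.65 and 8.74 CPM in control livers 1 to 4 and 1.46, 0.653, 0.967 and 1.37 CPM in KD livers 1 to 4, and fell, with a log2 difference of -2.72 ± 0.39 (adjusted p = 0.00219), also with any single liver left out. Lrtm1, a leucine-rich repeat membrane protein, was at 13.7, 8.70, 21.6 and 17.8 CPM in control livers 1 to 4 and 0.0913, 0.187, 2.02 and 2.08 CPM in KD livers 1 to 4 (log2 difference -3.76 ± 0.73, adjusted p = 0.0190), and was lost without control liver 4 or KD liver 2. Chrna4, a nicotinic acetylcholine receptor subunit, was at 0.547, 0.844, 2.14 and 17.2 CPM in control livers 1 to 4 and 0.0913, 0.187, 0.0806 and 0.144 CPM in KD livers 1 to 4. Control liver 4 carried most of its control signal, and the call (log2 difference -5.29 ± 1.17, adjusted p = 0.0395) was lost without control liver 4 or without any KD liver. Rgs16, a regulator of G protein signalling, was at 61.7, 52.2, 115 and 141 CPM in control livers 1 to 4 and 20.6, 8.58, 20.8 and 16.0 CPM in KD livers 1 to 4 (log2 difference -2.49 ± 0.58, adjusted p = 0.0472), a call lost with any of the 8 livers left out. Bbc3, the pro-apoptotic BH3 protein PUMA, was at 2.97, 3.71, 5.24 and 6.49 CPM in control livers 1 to 4 and 1.19, 0.373, 0.887 and 1.51 CPM in KD livers 1 to 4 (log2 difference -2.19 ± 0.47, adjusted p = 0.0372), lost without control liver 3 or 4 or KD liver 1, 2 or 3. The pseudogene Cyp2d37-ps, whose reads can be shared with other Cyp2d genes, was at 6.95, 6.50, 24.1 and 41.7 CPM in control livers 1 to 4 and 5.11, 3.45, 4.03 and 6.32 CPM in KD livers 1 to 4 (log2 difference -2.07 ± 0.48, adjusted p = 0.0472). Control livers 3 and 4 were well above the other controls, and without the 3 livers of low mitochondrial share the log2 difference was -0.68. Gask1a, a Golgi-associated protein, had a log2 difference of -2.06 ± 0.44 (adjusted p = 0.0370). Cyp2d37-ps and Gask1a were lost without control liver 4 or any KD liver, Cyp2d37-ps also without control liver 3 and Gask1a without control liver 2.

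Lists of other pathways and cell types held few or no calls. With 0.648% of all tested genes called, lists of these sizes, here and above, would mostly hold no call. No gene passed among 24 of cholesterol synthesis and uptake (median log2 difference -0.14), 30 of amino acid breakdown and the urea cycle (-0.19), 18 of the circadian clock (-0.02), 40 of the nuclear-encoded respiratory chain (0.08) and 19 acute phase proteins (0.11). For 23 cell cycle genes the median was -0.48 with no call. Their medians were -0.71, -0.41, -0.15 and -0.03 in KD livers 1 to 4. They overlapped those of control livers 1 to 4, at 0.01, -0.50, -0.01 and 0.25. The 21 genes of ER stress and the integrated stress response had a median of 0.37 with no call, and their medians were 0.54, -0.01, 0.05 and 0.09 in KD livers 1 to 4. KD liver 1 thus stood above the other 3, and the list's median log2 difference was 0.10 without the libraries over 100 CPM of pancreas RNA. Endothelial markers had no call among 20, all with differences above 0 (median 0.22), at 0.09, 0.20, 0.26 and 0.34 in KD livers 1 to 4. Kupffer cell and macrophage markers, 18 genes, had a median of -0.05, and 17 stellate cell and fibrosis markers 0.25, none called. Without the libraries over 100 CPM of pancreas RNA the stellate cell median was -0.07.

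The calls were then set against the pancreas RNA of the same livers. In the 8 MCT livers of both genotypes, 3 of which held pancreas RNA, 40 genes (0.301% of those tested) rose with the summed pancreas level. Of the 86 genes called on KD, 3 were among them: Zg16, a zymogen granule protein, Pnliprp2, a pancreatic lipase-related protein, and Cuzd1, a zymogen granule membrane protein. Pnliprp2 and Cuzd1 are 2 of the 33 genes summed into that level, so their rise with it was built in. Zg16 is not among the 33. Pnliprp2 was at 0.0781, 0, 0.138 and 0.0624 CPM in control livers 1 to 4 and 15.4, 297, 0.161 and 42.1 CPM in KD livers 1 to 4. Cuzd1 was at 0, 0, 0 and 0.0624 CPM in control livers 1 to 4 and 3.47, 51.6, 0 and 12.1 CPM in KD livers 1 to 4, and Zg16 at 0, 0, 0.0689 and 0.187 CPM in control livers 1 to 4 and 15.0, 231, 0 and 52.7 CPM in KD livers 1 to 4. All 3 followed the pancreas level, with KD liver 2 highest and KD liver 3 at or near the control level.

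With all libraries over 100 CPM of pancreas RNA left out, KD liver 3 was the only KD liver of WT mice that remained, and its spread was taken from the other groups. The 83 called genes that could still be tested kept their direction, 45 of 45 higher and 38 of 38 lower. That was nearly fixed beforehand, since this fit reused KD liver 3 and the controls that made the calls. KD liver 3 already lay outside all controls in the direction of the call for 46 raised and 37 lowered genes. The median log2 difference of the raised genes went from 1.60 over all 48 to 1.41 over these 45, and that of the lowered genes from -1.34 to -1.46. Cbfa2t3, Slc16a13, Ucp2 and Mogat1 were then called, and no lowered gene was. With the pancreas level as a covariate, all 86 kept their direction (medians 1.36 and -1.24), and 13 of them were called, among them Scd1, Pnpla3, Mogat1 and Kbtbd11. Under that covariate Zg16 went from 9.86 to 0.37 on the log2 scale (adjusted p = 0.927), Cuzd1 from 9.28 to 0.42 (adjusted p = 0.925) and Pnliprp2 from 10.09 to 1.19 (adjusted p = 0.683). Cuzd1 and Pnliprp2 are themselves part of the summed level used as the covariate. Leaving out only KD livers 2 and 4, with over 2000 CPM, kept all 86 directions and 11 of the calls, Mogat1, Elovl3, Kbtbd11 and Ucp2 among them. All 11 were raised genes, and 0 of the 38 lowered genes were still called. Clstn3 went from 2.07 to 0.50 and Rbm4 from -1.49 to -2.24 without the libraries over 100 CPM. Fewer KD livers entered the fits that left livers out, and how much of the loss of calls goes with that was not tested. The covariate fit and the fit without KD livers 2 and 4 also reused values that made the calls. The kept directions are therefore no separate evidence on the part of pancreas RNA.

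**Figure D4:**
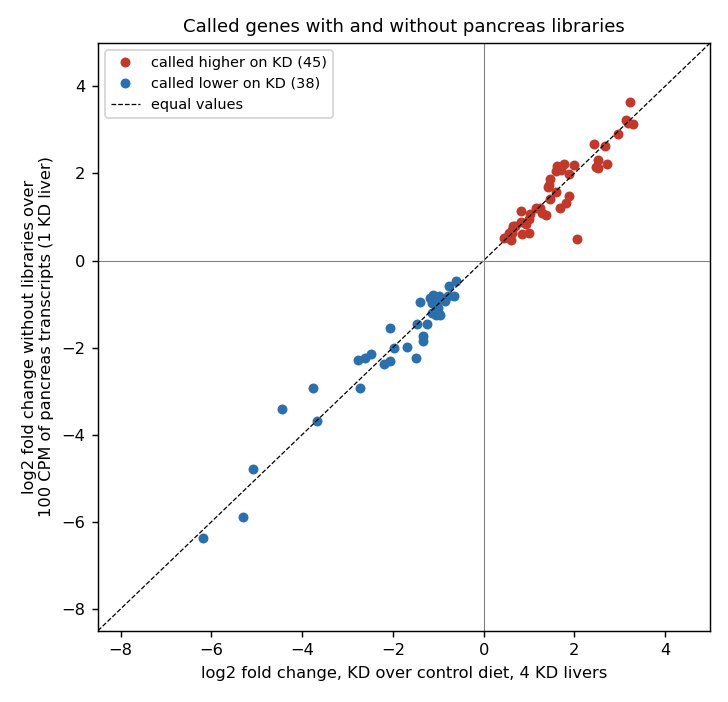
Log2 difference between KD and control diet for the 83 called genes that could be tested both ways, with all 4 WT KD livers (x axis) and without the libraries over 100 CPM of pancreas RNA (y axis). All 45 raised and 38 lowered genes lie on the same side of 0 on both axes.

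The same diet contrast in 3xTg mice used 8 other livers, all with at most 33.9 CPM of pancreas RNA. There 716 genes were called, 5.39% of those tested. Of the 48 genes raised in WT liver 27 were called higher in 3xTg liver, and of the 38 lowered 16 were called lower. The fitted direction was the same for 44 and 28 of them. Mogat1 rose by a log2 difference of 4.02 ± 0.36 in 3xTg liver (adjusted p = 1.32e-06), Kbtbd11 by 3.35 ± 0.41 (adjusted p = 6.05e-05) and Fasn fell, at a log2 difference of -2.86 ± 0.40 (adjusted p = 0.000310). Calls in one genotype and not in the other do not show a difference, so the difference of the responses (3xTg minus WT) was tested for each gene.

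That test called 1 of 13281 genes (0.00753%), Arl4d, a small GTPase of the Arf family (ENSMUSG00000034936.2, chromosome 11, 101665541 to 101667832 on GRCm38). In WT mice Arl4d was at 12.3, 11.7, 17.9 and 34.4 CPM in control livers 1 to 4 and 6.30, 6.90, 4.84 and 5.53 CPM in KD livers 1 to 4. In 3xTg mice it was at 6.49, 6.09, 5.63 and 6.18 CPM in control livers 1 to 4 and at 21.2, 17.7, 28.1 and 13.9 CPM in KD livers 1 to 4. It was lower on KD in every WT liver and higher on KD in every 3xTg liver. The WT log2 difference was -1.70 ± 0.40 (adjusted p = 0.0472), the 3xTg difference 1.73 ± 0.39 (adjusted p = 0.0120), and the difference between them 3.43 ± 0.56 (adjusted p = 0.0404). The WT call alone was lost without control liver 3 or 4 or any KD liver.

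More genes were called in 3xTg liver in each of 4 lists, as they were over all tested genes (5.39% against 0.648% in WT liver). The lipogenesis list had 14 of 23 genes called lower in 3xTg liver, against 5 in WT liver, with medians of -1.503 and -0.52. For the PPARA targets 10 of 23 were called higher, against 1, with medians of 0.68 and 0.48. For beta-oxidation 8 of 20 were called higher, against 0, and for ketone body genes 3 of 9, against 0. No gene of these 4 lists passed the test of the difference, so that none of these responses was shown to differ between the genotypes.

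**Figure D5:**
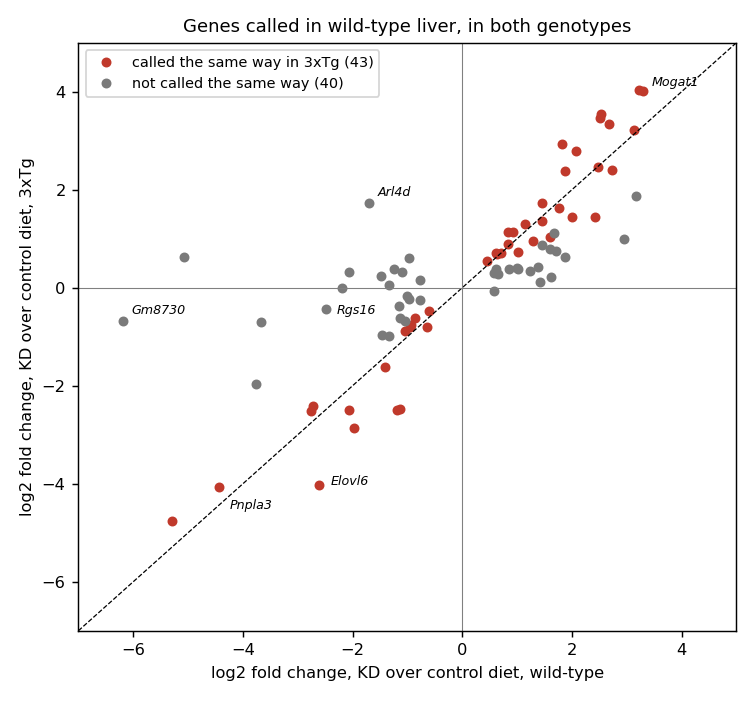
Log2 difference between KD and control diet in WT liver (x axis) and in 3xTg liver (y axis) for 83 of the 86 genes called in WT liver (without Zg16, Pnliprp2 and Cuzd1), with genes called the same way in 3xTg liver marked apart from the others. Of these genes 43 are called the same way in both genotypes. Arl4d lies in a quadrant of opposite direction, as do some genes not called in 3xTg liver, such as Rab23 and Ncapd3.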

How the data were processed

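Liver polyA RNA of 24 mice was measured, 4 per genotype and diet, and the labels give separate mice. Per the labels, RNA integrity numbers were above 8 and the adapters carried molecular identifiers. The authors deposited whole-number read counts per gene for 55335 Ensembl genes, per the file headers, with symbols and coordinates. The submitters' processing notes name Trimmomatic, STAR and GRCm38. The strand direction, tool versions and any use of the molecular identifiers were not given in the sources used here, so overlapping genes and close paralogs are uncertain. Every count column matched a sample (unmatched columns: 0). Entries that name no gene held 25.2% to 30.1% of each WT control and KD library and entered neither library sizes nor tests.

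Counts of all 24 libraries were filtered with filterByExpr by group (13281 genes kept), scaled by TMM and fitted once with edgeR 4.0.16 (R 4.3.3; quasi-likelihood test, 1 mean per group, 18 residual degrees of freedom). Adjusted p is Benjamini-Hochberg over all 13281 genes, called under 0.05. CPM values of genes are TMM-scaled unless raw totals are named, and library sums use raw totals. Differences are KD minus control on the log2 scale ± SE, other spreads are SD. Library measures were compared by two-sided exact permutation tests, 24 in all. The pancreas slope was fitted in the 8 MCT livers against log2 of the summed pancreas level. The steps were checked on simulated counts. No pair of replicate libraries agreed within sampling noise (smallest chi-square per gene 26.8).

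The members and lists were chosen with earlier results of these data known. Named genes are the 12 highest and 12 lowest log2 differences among called genes whose mean reached 1 CPM and whose groups did not overlap (unnamed models and pancreas genes passed over), up to 4 called members per list, and a fixed set of metabolic genes. A few of these genes are not reported here. Other genes in the text were chosen after their values were seen. Alternatives were RLE size factors, library size scaling, no filter, DESeq2 1.42.0, a legacy quasi-likelihood fit, a fit of 8 libraries, a replicate block, pancreas adjustments and each liver left out. Fits on mitochondrial share were chosen after seeing the data. Promoter windows are RefSeq GRCm38.p6.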

Additional observations from a re-analysis of the deposited data

Results flagged for a closer look

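Of 172 groups of 4 livers tested for a liver far from the others, 15 had one, and chance flags about 1 in 20 groups. Among genes, control liver 4 stood apart for Chrna4 (17.2 CPM), Fgf21 (6.49 CPM), Plin2 (286 CPM) and Cuzd1 (0.0624 CPM). KD liver 1 stood apart for Fitm2 (115 CPM) and Insig2 (438 CPM), KD liver 2 for Pnliprp2 (297 CPM), and KD liver 3 for Ppara (185 CPM, the lowest KD liver). Plin2 and Chrna4 in control liver 4 were high for the group. For Chrna4 the distant control liver also carried most of the control signal.

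Among library measures, KD liver 4 stood apart in the summed macrophage markers of lipid-laden or infiltrating type (79.9 CPM), in summed erythroid markers (309.8 CPM), in the share of mitochondrially encoded counts (8.80%) and in the TMM factor (1.08). Control liver 1 had 63.9 CPM of the same macrophage markers, control liver 2 the lowest mesothelial sum (67.8 CPM) and control liver 4 the highest neutrophil sum (6.55 CPM).

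The response to KD differed between the genotypes for Arl4d, by a log2 difference of 3.43 ± 0.56 (3xTg minus WT, adjusted p = 0.0404, edgeR's quasi-likelihood test). The WT values were lower on KD and the 3xTg values higher, in each case without overlap.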

How the results depend on the processing

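Against 86 called genes (48 higher, 38 lower), RLE size factors gave 87 and no filter 109. Library size scaling, which moved the median of all genes to -0.15, gave 93 with a split of 27 higher and 66 lower. DESeq2 gave 266 (141 and 125), the legacy quasi-likelihood fit 53 (32 and 21), and the 8 WT libraries alone 122 (61 and 61). The pancreas covariate gave 14 (9 and 5), omission of the libraries over 100 CPM of pancreas RNA 4 (4 and 0, with 899 genes under 0.05 before adjustment), and omission of the WT KD livers over 2000 CPM 13 (12 and 1). Chosen after seeing the data, the mitochondrial share covariate gave 32 (20 and 12) and omission of the 3 WT livers of low share 2 (1 and 1). The cause of these changes was not tested, and the 2 covariate fits kept all libraries. Leaving out 1 liver gave 13 to 52 called genes, 9 to 32 higher and 2 to 29 lower. Without control livers 1 to 4 the counts were 48, 48, 36 and 13, and without KD livers 1 to 4 they were 44, 15, 28 and 52. A replicate block gave 85 genes (50 and 35), 63 of them among the 86. The deviations of same-numbered livers had r of -0.12, -0.08, -0.11 and -0.08, so the numbers did not pair the livers. The difference between responses was called for 1 gene, for 253 with DESeq2 and for 9 with the replicate block. The pancreas slope in MCT livers was called for 40 genes, and for 32 to 41 with 1 liver left out, and 3 called KD genes followed it in each case. Reversed values belonged to genes that were not called: Pdk4 at 0.11 without the KD livers over 2000 CPM and 0.26 without the low-share livers, Cd36 at -0.0549 and Acacb at 0.22 without the libraries over 100 CPM, Acacb at 0.0498 without control liver 2 and 0.0259 without KD liver 2, and Insig2 at -0.0195 without KD liver 1. With 1 liver left out Acacb ranged from -0.256 to 0.0498, Pparg from -0.132 to 0.314 and Insig2 from -0.0195 to 1.26. Pparg was at -0.0639 with library size scaling, -0.11 without the KD livers over 2000 CPM, -0.132 without KD liver 2 and -0.0188 with the mitochondrial share covariate. Over all named genes and settings, 275 values fell below the threshold in the same direction and 11 rose past it. Depth leaves genes under about 1 CPM, such as Adipoq and Plin1, with few reads.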

Other observations

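A few called genes outside the lists are given here, chosen after their values were seen. Ucp2, a mitochondrial carrier, was at 25.9, 19.1, 23.4 and 18.2 CPM in control livers 1 to 4 and 34.0, 78.8, 101 and 81.3 CPM in KD livers 1 to 4. It rose by a log2 difference of 1.77 ± 0.27 (adjusted p = 0.00243), without overlap. Alas1, which takes the first step of heme synthesis, was at 448, 159.8, 389 and 262 CPM in control livers 1 to 4 and 641, 878, 1321 and 1294 CPM in KD livers 1 to 4 (log2 difference 1.72 ± 0.40, adjusted p = 0.0472). Fmo2, a flavin-containing monooxygenase, rose by a log2 difference of 1.41 ± 0.26 (adjusted p = 0.0141) and Nceh1, a neutral cholesterol ester hydrolase, by a log2 difference of 1.02 ± 0.22 (adjusted p = 0.0384). Lamb3, a laminin chain, rose by a log2 difference of 1.83 ± 0.32 (adjusted p = 0.0128). Umps, which completes the synthesis of UMP, fell, with a log2 difference of -0.64 ± 0.13 (adjusted p = 0.0190), and Rbm3, a cold-inducible RNA-binding protein, fell as well, at a log2 difference of -1.15 ± 0.26 (adjusted p = 0.0440). In 3xTg liver Ucp2 had a log2 difference of 1.63 ± 0.26 (adjusted p = 0.00112), Alas1 at a log2 difference of 0.75 ± 0.39 (adjusted p = 0.314) and Fmo2 at a log2 difference of 0.11 ± 0.25 (adjusted p = 0.876).

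Some called gene models split WT livers in a way that diet did not follow in the other groups. Gm8730 was at 13.7, 19.5, 12.2 and 11.7 CPM in control livers 1 to 4 and 0.0913, 0.280, 0.161 and 0.216 CPM in KD livers 1 to 4, with no overlap. In WT MCT livers 1 to 4 it was at 0, 14.9, 0 and 34.4 CPM, and in the 12 3xTg livers it ranged from 9.92 to 47.3 CPM. Gm9625 followed the same split, at 2.58, 5.49, 2.76 and 2.31 CPM in control livers 1 to 4, 0.183, 0.187, 0.242 and 0.359 CPM in KD livers 1 to 4 and 0.0755, 3.41, 0.421 and 7.41 CPM in WT MCT livers 1 to 4. The lowered call of Adh6-ps1 rested on 1 liver. It was at 0, 0.0844, 0.0689 and 9.17 CPM in control livers 1 to 4 and 0.0913, 0.0933, 0.0806 and 0 CPM in KD livers 1 to 4, while all 3xTg livers held 7.34 to 16.5 CPM.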
